A study of Solanum chacoense with 24 samples.

Results

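The 150 most abundant leaf transcripts of the wild diploid potato species Solanum chacoense were followed through 24 leaf libraries from 2 parental lines and 6 of their F2 lines. Abundance was measured in CPM, the count of a gene model per 1000000 counts of its library. The mean over the 3 libraries of a line gave a line mean, and the 150 gene models with the highest mean of the 8 line means were taken, out of 37740 models in the deposited table (0.397%). The values that chose the members are therefore given as a description and without a test. The deposited table pairs no identifier with a gene name, so the members are called by identifier, no role is given to any of them, and the labelled tissue was not checked against marker genes here.

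The parent 80-1 (labelled USDA8380-1) is resistant to Colorado potato beetle, which eats potato foliage, and M6 is a susceptible inbred line. The F2 lines EE501F2_089, EE501F2_516 and EE501F2_641 were labelled resistant and EE501F2_093, EE501F2_099 and EE501F2_500 susceptible, after the extremes of a field trial of the 80-1 by M6 F2 population. Each line was 1 individual multiplied in vitro, so its 3 plants were meant to share a genotype, and p-values measured the spread between such plants. Whether the 3 plants of EE501F2_641 do share a genotype could not be settled here. Leaflets of the fourth fully expanded leaf were taken 16 weeks after transplanting, in a growth chamber at 20 °C with 16 h of light and 70% relative humidity, with no labelled treatment.

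EE501F2_093 was sequenced most deeply, with 60713423 to 77078776 counts in a library, and the libraries of the other 7 lines had 23610756 to 40825791. A library's lowest count for a member was 88, for g5084 in replicate 1 of EE501F2_641, and 145 of the 150 members had at least 1000 counts in every library, so counting error was small beside the spread between plants. Over all tested models EE501F2_641 had the most unlike plants, with a median coefficient of variation (CV, SD divided by mean) of 30.5% against 12.0% to 18.8% in the other 7 lines. In the members themselves it was EE501F2_099 that varied most, with a median CV of 36.5%, and its replicate 2 lay apart from its replicates 1 and 3. The counts that rest most on these plants are given with and without them.

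Leaf cells are known to devote a large part of their messenger RNA to the photosynthetic apparatus, such as the small subunit of the carbon-fixing enzyme Rubisco and the chlorophyll-binding proteins of the light-harvesting antennae. In plants these proteins are encoded in the nucleus by small families of closely similar genes that often lie side by side. Which of the members encode such proteins is not known from the table.

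The members held 33.4% of all counts as the mean of the 8 line means, and the next 150 models in rank held 7.65%. In 80-1 the members held 38.7% to 39.2% of a library's counts, a mean of 38.9% ± 0.264 (SD, n = 3), and in M6 they held 29.0% to 32.4%, a mean of 30.8% ± 1.68. The plants of the parents did not overlap, and the means lay 8.11 percentage points apart, or 16.5 points when counts were taken over TMM-scaled library sizes (a scaling explained with the levels). Among the resistant F2 lines the members held 40.3% ± 1.22 in EE501F2_641, 35.9% ± 3.09 in EE501F2_089 and 23.8% ± 1.73 in EE501F2_516. Among the susceptible F2 lines they held 36.9% ± 1.13 in EE501F2_093, 31.3% ± 5.55 in EE501F2_099 and 28.9% ± 2.38 in EE501F2_500. The highest and the lowest of all line means were thus both in resistant F2 lines, and the F2 classes overlapped. Within EE501F2_099 the 3 plants held 33.1%, 25.0% and 35.6%, the low value being that of replicate 2. In such bulk libraries a smaller share of a cell type and less RNA per cell cannot be told apart.

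**Figure D1:**
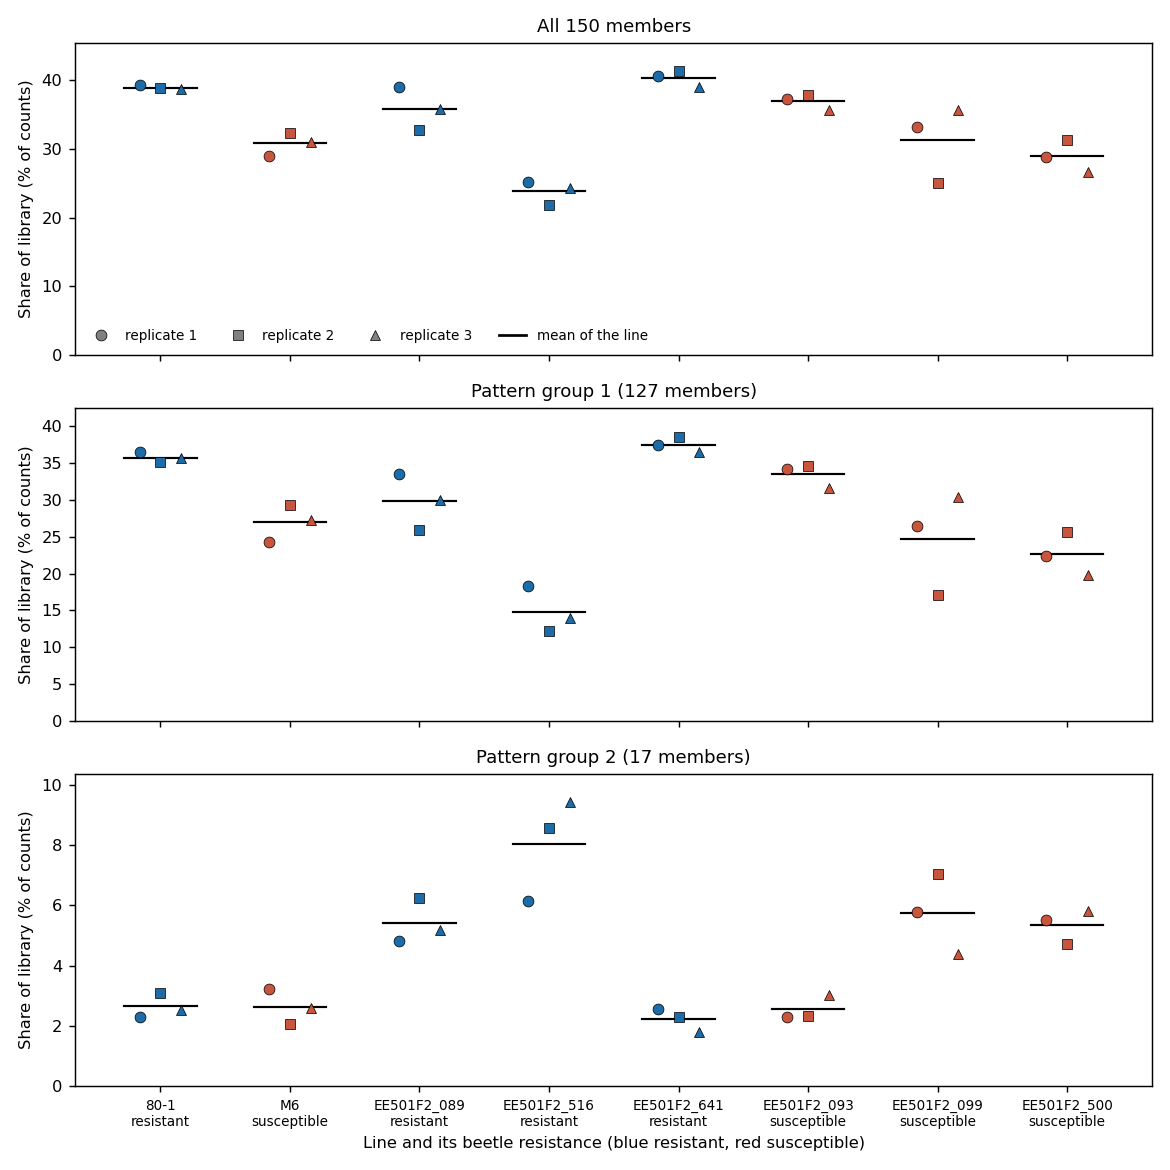
Percent of each library's total count held by the 150 members (top) and by their first (127) and second (17) pattern group, described below; each point is 1 plant and each line the mean of 3. The plants of 80-1 lie between 38.7% and 39.2% and those of M6 between 29.0% and 32.4%, and EE501F2_641 and EE501F2_516, both resistant, have the highest and the lowest line mean.

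Within the 150 the counts were uneven. The mean CPM ran from 17333 for g23593 to 707 for g7880, with a median of 1392. At the lower edge of the choice the last members were g26796 at 709 CPM and g7880 at 707 CPM, and the first models outside were g15806 at 706 CPM and g1043 at 704 CPM. Rank 150 is therefore a place in a continuous distribution and not a gap. The choice and the ranks used CPM not divided by model length, and a long transcript collects more reads. Levels of different members are therefore also given per kilobase (kb) of model length. By CPM g3038 had rank 6 and g3840 rank 17, and per kb they had rank 40 and rank 3 among the members. CPM per kb ran from 175 to 23234 with a median of 966, and 113 of the 150 members were also among the 150 highest models per kb. The highest 3 per kb were g23593 at 23234, g30427 at 10205 and g3840 at 9807 CPM per kb; the last is a model of 435 bases with 1 exon interval at chr10:13928085-13928519, plus strand.

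The transcript with the highest mean, g23593 (chr9:33323573-33324938, minus strand, 746 bases in 2 exon intervals), alone took 1.73% of all counts. Levels from here on are CPM after TMM scaling, which adjusts library sizes for a few abundant genes that differ between libraries. For g23593 the plants of 80-1 had 11074, 15569 and 12802 CPM and those of M6 9501, 5114 and 9155 CPM. In the resistant F2 lines the plants had 19863, 19244 and 19182 CPM in EE501F2_089, 18677, 23677 and 36349.8 in EE501F2_516 and 11199, 9162 and 3994 in EE501F2_641. In the susceptible F2 lines they had 9894, 7973 and 13289 CPM in EE501F2_093, 26453, 28939.5 and 21090.1 in EE501F2_099 and 21828, 18501 and 23477 in EE501F2_500. Every plant of EE501F2_089, EE501F2_516, EE501F2_099 and EE501F2_500 was above every plant of the parents, of EE501F2_641 and of EE501F2_093, so the high and the low lines each included both F2 classes. The parental difference in g23593 did not pass the test (log2 fold change 0.73 ± 0.36, edgeR quasi-likelihood, Benjamini-Hochberg adjusted p = 0.113).

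The second transcript, g20100 (chr10:24211012-24214206, minus strand), had a different order of lines. Its plants had 24295, 22688 and 23507 CPM in 80-1 and 13413, 17311 and 16424 CPM in M6, which did not overlap. The resistant F2 line means were 11493 ± 2096 CPM in EE501F2_089, 3349.6 ± 978 in EE501F2_516 and 19716 ± 4294 in EE501F2_641. The susceptible F2 line means were 20225 ± 1851 CPM in EE501F2_093, 13863 ± 3511 in EE501F2_099 and 11824 ± 1852 in EE501F2_500. EE501F2_516, the highest line for g23593, was the lowest for g20100, with each of its plants below every plant of the other 7 lines. The parental difference in g20100 did not pass the test either (log2 fold change 0.58 ± 0.28, edgeR adjusted p = 0.109).

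The other 8 of the 10 highest transcripts were g10491 (chr3:3770901-3774188, minus strand), g37398 (chr7:28919427-28920686, minus strand), g30427 (chr2:17123147-17124337, minus strand), g3038 (chr2:40698483-40704339, minus strand), g27437 (chr4:3202672-3205621, minus strand), g24238 (chr6:30397532-30399571, plus strand), g26364 (chr9:402587-404811, minus strand) and g1638 (chr7:38746375-38748499, minus strand). In each of these 8, EE501F2_516 had the lowest line mean; EE501F2_641 had the highest in 6 and 80-1 in 2, g3038 and g27437, while on library totals EE501F2_093 was highest for g10491. The line means of g10491 ran from 3812 ± 1421 to 17465 ± 4167 CPM and those of g30427 from 4139 ± 1336 to 18534 ± 2578 CPM. A model on the opposite strand, g1637, overlaps g1638 in coordinates, and reads of the 2 could not be separated. Between the parents 3 of the 10 highest passed the test, each higher in 80-1. The plants of 80-1 had 14561, 13404 and 14017 CPM for g3038 and those of M6 2513, 6399 and 4343 CPM, without overlap (log2 fold change 1.66 ± 0.53, edgeR adjusted p = 0.0185). For g27437 they had 12699, 11708 and 12143 CPM in 80-1 and 3953, 6331 and 5346 CPM in M6, again without overlap (log2 fold change 1.23 ± 0.34, edgeR adjusted p = 0.00688). For g37398 the line means were 13457 ± 298 CPM in 80-1 and 7967 ± 487 CPM in M6 (log2 fold change 0.76 ± 0.28, edgeR adjusted p = 0.0409).

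**Figure D2:**
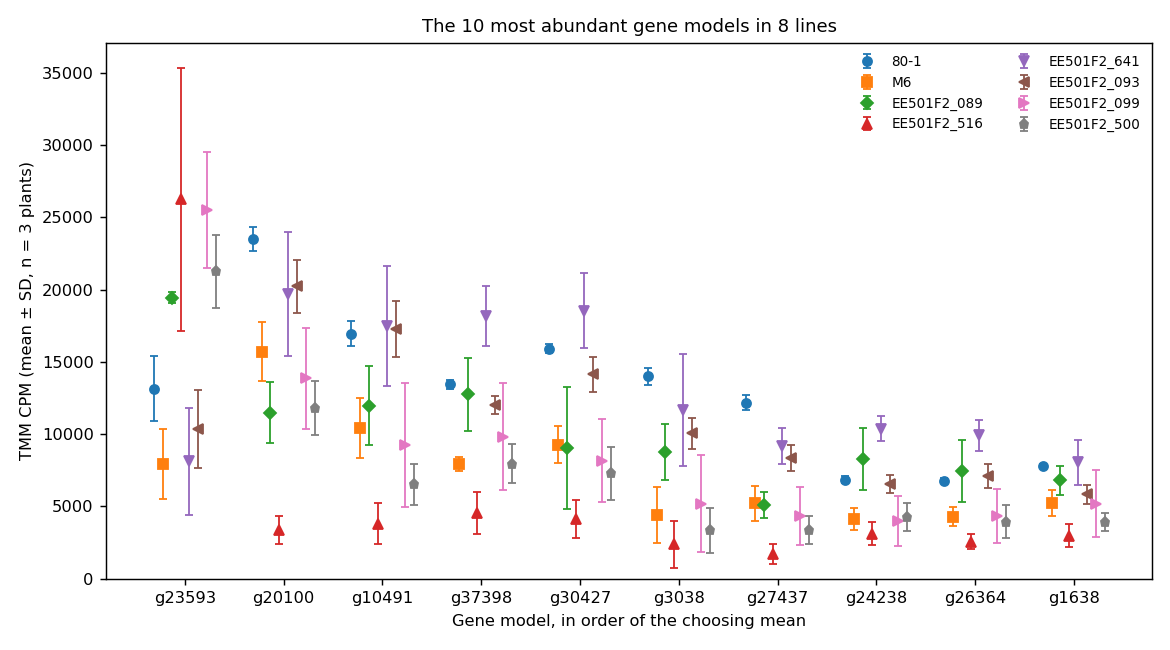
TMM-scaled CPM (linear axis) of the 10 most abundant transcripts in the 8 lines; points are means of 3 plants and bars their SD. For g23593 EE501F2_516 has the highest mean at 26235 CPM, and for g20100 it has the lowest at 3349.6 CPM.

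Most members moved together across the libraries. When the 150 were grouped by the correlation of their log2 CPM over the 24 libraries into 4 groups, the first held 127 members, the second 17, and the third and the fourth 3 each. These groups were made from the values they describe and share library depth and scaling, so they are a description only. The median Pearson r within the first group was 0.73 over 24 libraries, within the second 0.57, and between members of the first and the second it was -0.45. A first principal component of the 150 took 60.5% of their variance and a second 15.3%.

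The first group, with g20100 and 8 others of the 10 highest, held 28.2% of all counts. Its 127 members held 35.7% ± 0.657 of a library's counts in 80-1, 37.5% ± 1.03 in EE501F2_641 and 33.5% ± 1.60 in EE501F2_093, against 26.9% ± 2.47 in M6. The share was 29.8% ± 3.86 in EE501F2_089, 24.7% ± 6.85 in EE501F2_099 and 22.6% ± 2.92 in EE501F2_500, and it was lowest in EE501F2_516 at 14.8% ± 3.14. EE501F2_516 had the lowest line mean in 106 of the 127.

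The second group, led by g23593, held 4.33% of all counts and lay on 9 chromosomes. Its 17 members held 8.05% ± 1.70 of a library's counts in EE501F2_516, with plants at 6.15%, 8.58% and 9.42%. They held 5.74% ± 1.33 in EE501F2_099, 5.42% ± 0.739 in EE501F2_089 and 5.36% ± 0.560 in EE501F2_500. In 80-1 they held 2.65% ± 0.408, in M6 2.63% ± 0.579, in EE501F2_093 2.56% ± 0.420 and in EE501F2_641 2.24% ± 0.385. The lines thus fell into 4 with more and 4 with less of this group, and both sets of 4 included resistant and susceptible lines. Plants within a line differed likewise: in 6 of 8 lines the plant with the least of the first group had the most of the second. Shares of 1 total are not independent, since more of one leaves less for the rest. In EE501F2_099 the plants had 26.4%, 17.1% and 30.5% of the first group and 5.78%, 7.05% and 4.39% of the second, so replicate 2 was lowest in one and highest in the other.

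The third group was g13826, g34985 and g5084, each higher in M6 than in 80-1. The fourth was g1883, g5168 and g14495, none of which passed the parental test.

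**Figure D3:**
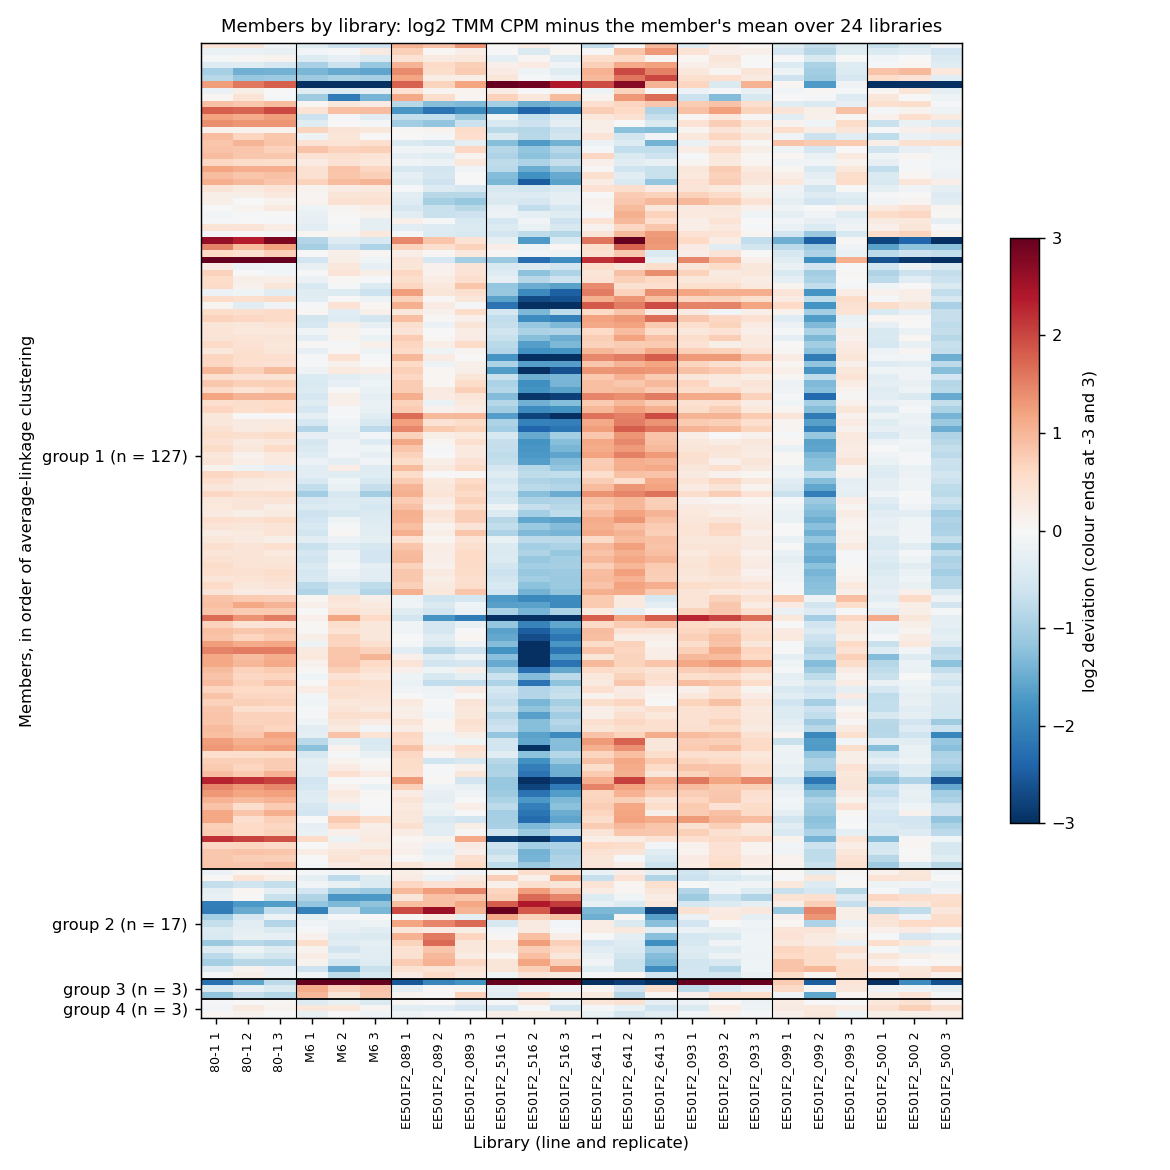
Log2 TMM-scaled CPM of each member (from top to bottom, by pattern group) minus its mean over the 24 libraries (from left to right, by line), with colours ending at -3 and 3. Most of the 127 members of the first group are low in EE501F2_516 and high in 80-1 and EE501F2_641, and of the 17 members of the second group 7 are highest in EE501F2_516 and 8 in EE501F2_089.

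Nearly all members differed between lines by more than their plants did. An F test of 8 equal line means passed for 147 of the 150 (edgeR quasi-likelihood, adjusted p under 0.05), where 84.7% of all 21028 tested models and 147 of the next 150 models passed. The 3 that did not pass were g10717 (adjusted p = 0.131), g558 (0.145) and g14495 (0.0502). Without EE501F2_641 the count was 146 of the 150, against 86.5% of all tested models. Without replicate 2 of EE501F2_099 it was 148, against 83.8%. Leaving 1 line out of the choosing mean would cost 21 members their place. For these 21, part of a difference among lines was built into the choice. The median CV of the 8 line means was 43.2% in the members, 38.1% in the next 150 models and 34.1% in all tested models. The ratio of the highest to the lowest line mean had a median of 4.0 and ran from 1.43 to 236. It was under 2 in 11 members (7.33%), against 18.7% of the next 150 models and 32.2% of all tested models, and 4 or more in 75 (50%), against 38.7% and 32.7%.

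EE501F2_641 had the highest line mean in 74 members (of all tested models, 16.3%), 80-1 in 46 (15.8%), and each of the other 6 lines in at most 9. EE501F2_516 had the lowest in 106 members (of all tested models, 20.8%). On library totals without TMM, EE501F2_641 was highest in 60 (background 6.96%) and 80-1 in 36 (8.54%), and EE501F2_516 lowest in 95 (12.6%). With plant 1, 2 or 3 of EE501F2_641 alone standing for its line, that line was highest in 64, 80 and 68 members. The share of all tested models was not taken for these counts. The most even members were g5168 (chr6:32000745-32008929, plus strand) with a CV of the line means of 11.7% and line means from 785 to 1125 CPM, and g558 (chr1:64594635-64595150, minus strand) with a CV of 12.6%. The most uneven were g916 with a CV of 139% and g5084 with 131%, both described with the parents.

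Within a line, the median CV between plants was 17.4% in the members, 16.0% in the next 150 models and 16.5% in all tested models. It differed between lines: in the members it was 6.44% in 80-1, 11.0% in EE501F2_093, 14.9% in M6 and 19.4% to 23.6% in EE501F2_089, EE501F2_641, EE501F2_500 and EE501F2_516, beside the 36.5% in EE501F2_099. Plants varied most in g13103 (chr10:33809457-33810614, minus strand), with a median CV of 48.7%, and in g4969 (chr2:34876266-34876986, minus strand), with 45.6%. For g13103 the plants of EE501F2_516 had 4387, 1407 and 2607 CPM, and for g4969 they had 251, 30.2 and 82.3 CPM.

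Each line had a member in which it stood furthest above the others. In 80-1 this was g29745 at 2762 ± 273 CPM, 2.79 times the next line mean. In EE501F2_516 it was g6909 at 2890.4 ± 579 CPM, 2.20 times the next, in EE501F2_641 g1951 at 5252 ± 572 CPM, 1.97 times, and in EE501F2_089 g16823 at 3368 ± 578 CPM, 1.92 times. In the other 4 lines the ratio was smaller: 1.48 for g13826 in M6, 1.30 for g25538 in EE501F2_093, 1.22 for g1883 in EE501F2_500 and 1.02 for g30710 in EE501F2_099. The last of these does not separate EE501F2_099 from the next line, given its plants at 1112, 1109 and 899 CPM. These members were picked for the ratio, which is given without a test.

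The parents were compared with 1 mean per line fitted to all 24 libraries and 80-1 minus M6 as the contrast. Of the 150 members, 54 (36.0%) passed at an adjusted p under 0.05, and 37.3% of all tested models passed (background). Of the 54, 49 (32.7% of the members) were higher in 80-1, where 18.6% of all tested models were called higher in 80-1. Only 5 (3.33%) were higher in M6, where 18.7% of all tested models were called higher in M6. The share called was near the background in this fit, and most of the calls were in 1 direction. Of the 300 highest models, the members included, 35.7% were called, 88 higher in 80-1 and 19 higher in M6. The next 150 models thus leaned the same way, though less. The first pattern group, whose members moved together, held 47 of the 49, so the 49 are not separate observations. The mean over lines that chose the members includes the parents, and 7 members would lose their place without 80-1 or without M6, 6 of them called. Of the 150 highest models chosen on the F2 lines alone, a choice added after seeing the data, 50 (33.3%) were called, 45 higher in 80-1 and 5 higher in M6. The estimate was positive in 127 members, called or not, and in 50.4% of all tested models. The median log2 fold change was 0.54 in the members and 0.01 in all tested models.

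The imbalance between the directions moved with the scaling. On library totals without TMM, 38 members (25.3%) passed, where 43.8% of all tested models did. Of these, 25 (16.7% of the members, background 11.4%) were higher in 80-1 and 13 (8.67%, background 32.4%) higher in M6, so the share of calls higher in 80-1 was 65.8% instead of 90.7%. The median over all tested models then moved to -0.31 and that of the members to 0.23, so the distance between them stayed.

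How many members were called, and on which side of the background, moved with the libraries. Without replicate 1 of every line 13 members passed (8.67%, background 24.7%), without replicate 2 of every line 59 (39.3%, background 28.7%) and without replicate 3 of every line 15 (10%, background 23.1%). Leaving out replicate 1, 2 or 3 of 80-1 gave 29, 33 and 32 (19.3%, 22% and 21.3% of the members, background 30.0% to 31.0%). Leaving out replicate 1, 2 or 3 of M6 gave 25, 45 and 31 (16.7%, 30% and 20.7%, background 30.2% to 32.6%). Without replicate 2 of EE501F2_099 68 passed (45.3%, background 38.3%). Without EE501F2_641 58 passed (38.7%, background 43.9%) and without EE501F2_516 53 (35.3%, background 37.0%). With the 6 parental libraries fitted alone, so that the spread of the F2 plants did not enter, 105 passed (70%, background 48.5%), 97 of them higher in 80-1. The plants of the 2 parents did not overlap in 121 members (80.7%), against 58.0% of all tested models.

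**Figure D4:**
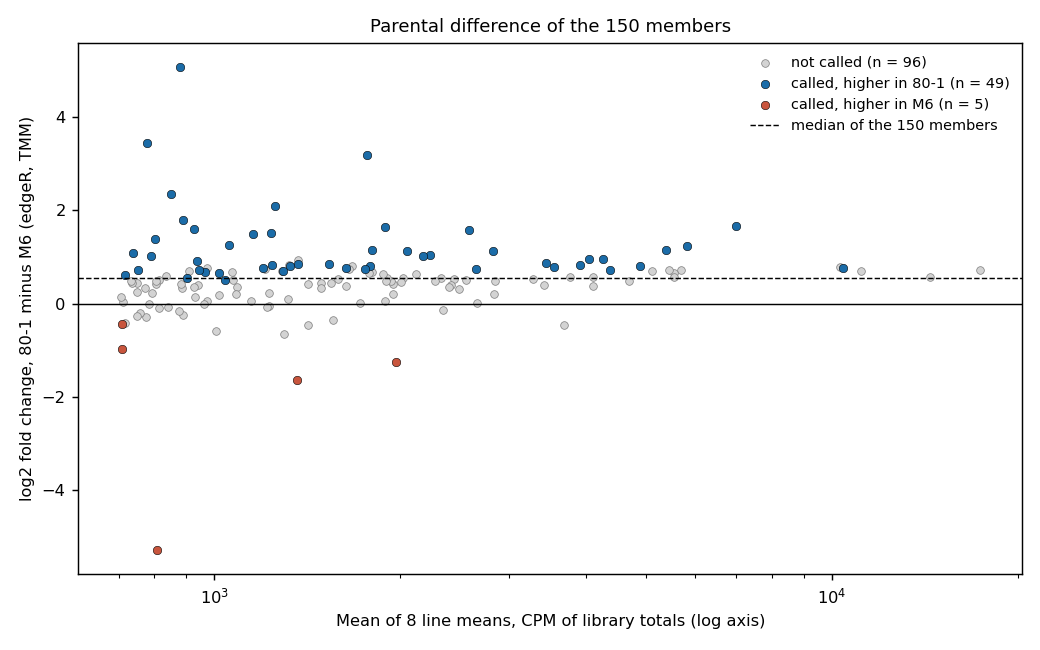
Log2 fold change between the parents (80-1 minus M6, edgeR with TMM) of each member against its mean CPM of library totals (log axis); coloured points passed the test and the dashed line is the median of the members. Of the 54 coloured points, 49 lie above 0 (higher in 80-1) and 5 below.

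The difference was 2-fold or more in 26 of the 54, 23 higher in 80-1 and 3 higher in M6. The largest difference in favour of 80-1 was in g28532 (chr3:36354061-36354744, minus strand, 684 bases). Its plants had 870.3, 1089 and 1274 CPM in 80-1 and 21.4, 30.5 and 44.2 CPM in M6. No plant overlapped (log2 fold change 5.07 ± 0.58, edgeR adjusted p = 1.02e-06). In the F2 lines its plants had 1239.9, 586 and 829.7 CPM in EE501F2_089, 3288, 2718 and 1932 in EE501F2_516 and 1427, 2433 and 741 in EE501F2_641. They had 576, 273 and 751 CPM in EE501F2_093, 382, 112 and 340.5 in EE501F2_099 and 15.2, 45.1 and 30.0 in EE501F2_500. EE501F2_500 was near M6, and the resistant line means were above the susceptible ones. Without EE501F2_516, the resistant line in which it was highest, g28532 would lose its place among the members. Its class estimate (log2 difference 2.55 ± 1.00) is therefore a description with no test.

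The next largest was g916 (chr2:22653080-22656498, minus strand), with 3871, 3193 and 4109 CPM in 80-1 and 254, 429 and 344 CPM in M6, without overlap. Without 80-1 it would lose its place among the 150, so its estimate (log2 fold change 3.44 ± 0.65) is a description with no test. In EE501F2_641 the level was 1729.5, 2051 and 329 CPM, so replicate 3 was apart from its sister plants and near M6. The other F2 line means ran from 50.4 to 718 CPM, so by line means 80-1 and EE501F2_641 were above the others.

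In favour of M6 the largest difference was in g5084 (chr2:35881361-35882667, plus strand), with 30.8, 48.0 and 83.9 CPM in 80-1 and 2762, 1353 and 2194 CPM in M6. The parents did not overlap (log2 fold change -5.28 ± 0.74). Without M6, and likewise without EE501F2_516 or EE501F2_093, it would lose its place among the 150, so this too is a description with no test. The plants of EE501F2_516 had 1161, 1640.0 and 1696 CPM and those of EE501F2_093 2224, 2013 and 2611 CPM, and the other 4 F2 lines had plants of at most 247 CPM, so a resistant and a susceptible line were near M6. The second was g34985 (chr4:27247710-27249275, minus strand), with 540.4, 764 and 679.7 CPM in 80-1 and 2439, 1572 and 2154 CPM in M6, without overlap (log2 fold change -1.64 ± 0.35, edgeR adjusted p = 9.93e-04). In the 20 other settings tried, g28532 and g34985 kept their direction and passed the test.

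For the F2 classes the line was the replicate, and counts summed per line were compared between the 3 resistant and the 3 susceptible lines. None of the 150 members passed (edgeR quasi-likelihood, adjusted p under 0.05; background 0.0142%, 3 of 21184 models), and the lowest adjusted p of a member was 0.53. At an unadjusted p under 0.05 there were 5 members (3.33%), against 7.4% of all tested models. DESeq2 called 2 members, g16419 and g701, where it called 2.56% of all models it tested. A difference between the classes was therefore not detected in edgeR at 3 lines a class.

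The members with the smallest p in each direction are given with their values, none passing in edgeR. For g16419 (chr4:37288206-37290686, minus strand) the line means were 2617, 2122 and 1286 CPM in EE501F2_089, EE501F2_516 and EE501F2_641, and 822, 699 and 989 CPM in EE501F2_093, EE501F2_099 and EE501F2_500. The classes did not overlap (log2 difference 1.28 ± 0.41, edgeR adjusted p = 0.530; DESeq2 adjusted p = 0.0167). For g701 (chr1:65674447-65676073, minus strand) the resistant line means were 1234, 1269.8 and 1763 CPM and the susceptible ones 463, 716 and 835 CPM. Here too the classes did not overlap (log2 difference 1.07 ± 0.37, edgeR adjusted p = 0.553; DESeq2 adjusted p = 0.0306). In the other direction, g4430 (chr6:35257318-35260807, minus strand) had resistant line means of 976, 476 and 879 CPM and susceptible ones of 1350.0, 2295 and 1693 CPM, without overlap (log2 difference -1.20 ± 0.42, edgeR adjusted p = 0.571). For g30990 (chr2:32795576-32800501, plus strand) they were 1329, 487 and 1279 CPM against 2338, 1964 and 1719 CPM, also without overlap (log2 difference -0.96 ± 0.47, edgeR adjusted p = 0.777). Between the parents g16419 and g701 were higher in 80-1, the same direction as in the resistant lines. For g16419 the plants had 916, 1147 and 904 CPM in 80-1 and 749, 558 and 524 CPM in M6, without overlap (log2 fold change 0.70 ± 0.21, edgeR adjusted p = 0.0144). For g701 they had 821, 1048 and 769 CPM in 80-1 and 379, 185 and 301 CPM in M6, without overlap (log2 fold change 1.61 ± 0.35, edgeR adjusted p = 0.00116). For g4430 and g30990 the parental test did not pass (edgeR adjusted p = 0.126 and 0.903). Of g4430, 80-1 had 2333, 2646 and 2322 CPM and M6 1759, 1749 and 1854 CPM, without overlap. For g30990 the plants of 80-1 had 3461, 3188 and 2905 CPM and those of M6 2656, 3173 and 3339 CPM, which overlapped.

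The 3 resistant and the 3 susceptible line means were fully apart in 11 members (7.33%), against 12.8% of all tested models. Of these, 7 were higher in the resistant lines (4.67% of the members, background 6.45%) and 4 lower (2.67%, background 6.31%). These shares lie below the background, and the difference from it was not tested. With plant 1, 2 or 3 of EE501F2_641 alone standing for that line, the count was 6, 13 and 17. These were 4%, 8.67% and 11.3% of the members (background 12.3%, 13.1% and 13.7%). On library totals without TMM it was 17 (11.3%, background 11.0%), of which 7 were higher in the resistant lines.

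Against the parents, after TMM scaling, EE501F2_516 was below both in 118 members (78.7%, background 35.9%) and above both in 25 (16.7%, background 38.0%). EE501F2_641 was above both in 85 (56.7%, background 36.6%) and below both in 27 (18%, background 29.7%). With its plant 1, 2 or 3 alone it was above both in 78, 93 and 78 of the 150, and in 32.3%, 36.7% and 36.5% of all tested models. It was then below both in 23, 23 and 44 of the 150, and in 34.2%, 36.3% and 34.9% of all tested models. EE501F2_099 was below both in 87 (58.0%, background 29.9%) and above both in 19 (12.7%, background 31.8%). Without its replicate 2 it was below both in 45 of the 150, and in 29.3% of all tested models. It was then above both in 24 of the 150, and in 29.9% of all tested models. EE501F2_500 was below both in 99 (66.0%, background 31.3%) and above both in 28 (18.7%, background 34.5%). EE501F2_093 was above both in 45 (30.0%, background 28%) and below both in 14 (9.33%, background 25.0%). On this scale EE501F2_089 was near its background, with 57 above both (38.0%, background 34.3%) and 48 below both (32.0%, background 33.7%). On library totals without TMM it was above both in 67 (44.7%, background 33.0%) and below both in 53 (35.3%, background 30.8%). EE501F2_093 was then above both in 56 (37.3%, background 23.6%) and below both in 23 (15.3%, background 25.4%). The departures of EE501F2_516, EE501F2_641, EE501F2_099 and EE501F2_500 kept their direction on library totals. In the next 150 models, after TMM scaling, EE501F2_516 was below both in 58%, EE501F2_500 in 47.3% and EE501F2_099 in 44.7%. EE501F2_641 was above both in 46.7% of them and EE501F2_093 below both in 18.7%. Part of each departure from the background was therefore shared by the next 150 models. Outside the parents in the same direction in every F2 line, 5 members were above both (3.33%, background 5.06%) and 8 below (5.33%, background 4.77%). On library totals without TMM 5 were above (3.33%, background 4.55%) and 14 below (9.33%, background 3.45%).

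The members were spread over all 12 chromosomes, with 26 on chromosome 2 (17.3%, where 9.87% of all models with a count lie) and 16 on chromosome 1. In the table's coordinates 35 members (23.3%) lay within 50 kb of another member, against 15 (10%) of the next 150 models within 50 kb of another of those. These formed 11 sets of 2, 2 sets of 3 and 1 set of 7. The median model length was 1553 bases in the members, 1626.5 in the next 150 models and 1350 in all models with a count. Single-exon models made up 25 members (16.7%), 10% of the next 150 models and 20.1% of all models with a count. The table's build is not given in the sources used here, so coordinates are as deposited.

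The set of 7 lay on chromosome 2 between 24144432 and 24178503, on the plus strand, and comprised g1060, g1061, g1062, g1065, g1067, g1068 and g1069. The models are 720 to 1213 bases long, 6 of the 7 have 1 exon interval, and 4 of the 10 models in the span, members or not, have the same length of 798 bases. Together the 7 took 1.13% of all counts. Across the 24 libraries they moved together, with r between pairs of 0.70 to 0.99. Reads of near-identical neighbours may be shared between such models, and how the authors counted such reads is not given in the sources used here, so the 7 are also given as a sum.

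Summed over the 7, the level in TMM-scaled CPM was 13037 ± 398 in 80-1 and 8227 ± 1115 in M6 (SD, n = 3). In the resistant F2 lines it was 14734 ± 4301 in EE501F2_089, 3957 ± 1525 in EE501F2_516 and 23273 ± 1411 in EE501F2_641. In the susceptible F2 lines it was 15965 ± 1616 in EE501F2_093, 8335 ± 4299 in EE501F2_099 and 7540.3 ± 2272 in EE501F2_500. The plants of the parents did not overlap, with 12605 to 13390 CPM in 80-1 and 7484 to 9509 CPM in M6. EE501F2_641 was above and EE501F2_516 below both parents in every plant, and EE501F2_099 had plants from 3417 to 11385 CPM. Among the single members the highest line mean was 2.6 times the lowest in g1069 and 29.7 times in g1065. Without EE501F2_641, and likewise without EE501F2_093, g1062 and g1065 would lose their place among the members. Their high means in these lines, and with them the size of the set, were therefore partly built into the choice. Between the parents g1061 (log2 fold change 1.25 ± 0.47, edgeR adjusted p = 0.0435) and g1069 (0.75 ± 0.28, edgeR adjusted p = 0.0378) passed the test and the other 5 did not.

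**Figure D5:**
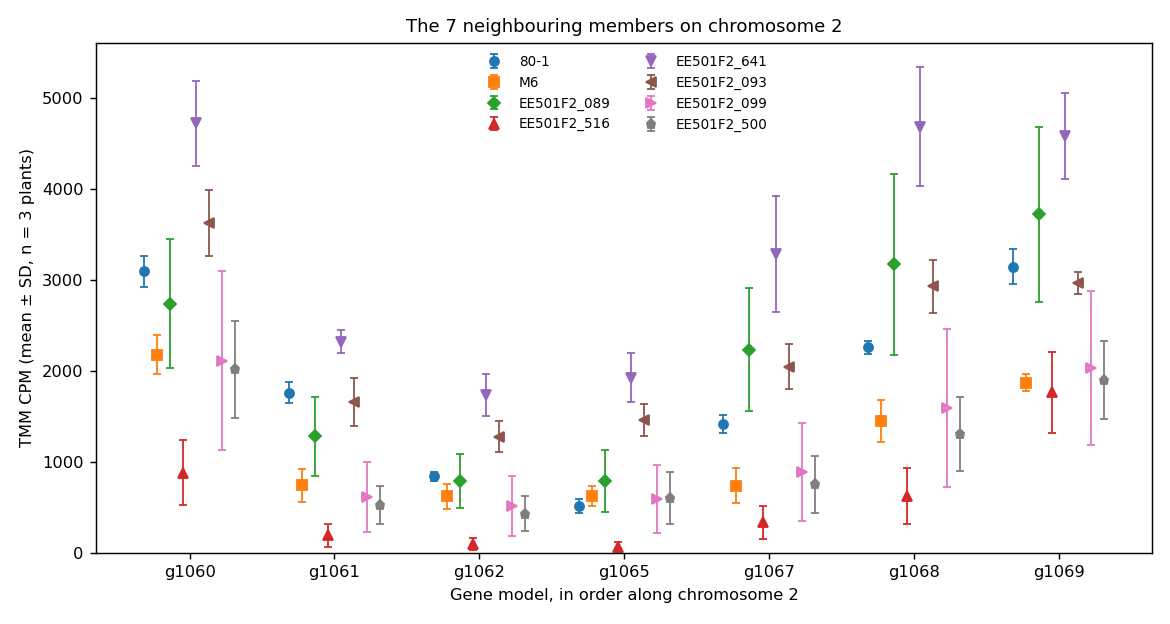
TMM-scaled CPM (linear axis) of the 7 neighbouring members on chromosome 2, in map order; points are means of 3 plants of a line and bars their SD. EE501F2_641 has the highest and EE501F2_516 the lowest mean in each of the 7, with summed means of 23273 and 3957 CPM. For g1062 and g1065 the high mean in EE501F2_641 is partly built into the choice, since without that line they would not be members.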

How the data were processed

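Gene counts of leaf RNA from 24 libraries (8 lines, 3 plants each) were used. The authors deposited 1 table of raw counts, whole numbers per gene model that had not been normalized, and per the file headers it also gives exon coordinates, strand and model length, in bases and so another unit. Per the submitters' processing notes the tools were Trimmomatic 0.35, STAR 2.6.0, Subread, featureCounts 1.5.3 and DESeq2; roles and order are not stated there. The genome build is not given in the sources used here, nor are the annotation, the strand setting and the treatment of multi-mapping reads, and these could move counts of near-identical or overlapping models. The 7954 models on the unplaced sequence had 0 counts in every library. Each column was matched to a library by its name, and 0 columns were left unmatched. Replicates differed by more than counting noise, with a chi-square per degree of freedom of 11.7 to 233 over the 24 pairs within lines, so each library was kept.

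Tests were run with edgeR 4.0.16 in R 4.3.3. After filterByExpr 21028 models were tested, with TMM factors of 0.777 to 1.23, and a quasi-likelihood fit of the 8 line means (16 residual degrees of freedom) gave the parental contrast and the test over the 8 lines. For the F2 classes, counts were summed per line (21184 models, 4 residual degrees of freedom). Benjamini-Hochberg adjustment ran over all tested models, and an adjusted p under 0.05 was a call. Errors of log2 values are approximate standard errors (size of the estimate over the square root of F). The scripts were tested on simulated data with known changes. DESeq2 1.42.0, other scalings, no filter, a replicate block and leaving out replicates or lines were alternatives. Pattern groups came from average linkage on 1 minus Pearson r of log2 TMM CPM (prior count 2).

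The members and lists were chosen with earlier results of these data known. Named were the 10 highest members, those at the edge of the choice, the 3 highest per kb, the 2 largest parental differences and the 2 smallest class p-values in each direction, the most and least variable members, the member furthest above the other lines in each line, members not called among the lines, and the largest set of neighbours. No sequences were used here.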

Additional observations from a re-analysis of the deposited data

Results flagged for a closer look

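In 15 of the 42 named members the parental effect (80-1 minus M6) and the F2 class effect (resistant minus susceptible) differed at an adjusted p under 0.05. This was edgeR's test of the difference of the 2 effects on the spread between plants, added after seeing the data. The spread between lines of a class did not enter the test or the standard errors given below. For g5084 the class effect alone had a standard error of 2.06 when the line was the replicate. Over all members 43 (28.7%) passed the test of the difference, where 34.7% of all tested models passed, so the members' share is not above the background. Most of these members were named for a large difference between lines, which builds part of a difference of the 2 effects into the choice, so the values are a description of these 8 lines and no p is given for single members. On the log2 scale the parental minus the class effect was -3.90 ± 0.76 (approximate SE) for g5084, -1.67 ± 0.40 for g34985, 1.85 ± 0.57 for g28532 and 2.84 ± 0.71 for g916, which were named for the parents. For g4430 and g30990, named for the classes, it was 1.67 ± 0.26 and 1.14 ± 0.37. For g20100 and g27437, among the 10 highest, it was 1.29 ± 0.32 and 1.42 ± 0.39, and for g3840, high per kb, and g26796, at the edge of the choice, 1.09 ± 0.38 and -1.25 ± 0.42. For g4969, uneven between plants, it was 2.27 ± 0.74. For members named as furthest above in 1 line it was 2.48 ± 0.44 for g29745, -1.27 ± 0.26 for g13826, -1.54 ± 0.30 for g6909 and 3.09 ± 0.58 for g25538.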

How the results depend on the processing

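The count of members called between the parents was 54 and was the result that moved most. Leaving out replicates, in every line or in 1 line, gave 13 to 68 (8.67% to 45.3% of the members). Fitting the 6 parental libraries alone gave 105 (70%). The share of all tested models called ran from 23.1% to 48.5% over these and the other settings. Choosing the 150 on the F2 lines alone gave 50. Settings that kept every library (other scalings, no filter, the replicate block and DESeq2) gave 38 to 70, the highest with DESeq2 (64 higher in 80-1, 6 higher in M6). Fewer samples or another spread estimate lie in the construction of these settings, and beyond that the cause was not tested. The parental gap in the members' share of counts was 8.11 percentage points and became 16.5 when taken over TMM-scaled library sizes. For the F2 classes edgeR called 0 members in every setting tried. At an unadjusted p under 0.05 there were 5 members in the main fit (1568 of 21184 tested models). There were 0 without EE501F2_099 (1140 of 21478 models) and 12 without EE501F2_516 (1688 of 21512 models). DESeq2 called 2 members, with or without its independent filtering. These were g16419 and g701, whose adjusted p over all alternatives ran from 0.0167 and 0.0306 to 1.00. Line means of the classes that do not overlap numbered 11 (7.33% of the members, background 12.8%), and 17 on library totals (11.3%, background 11.0%). With plant 1 of EE501F2_641 alone they numbered 6 (4%, background 12.3%), and with plant 3 alone 17 (11.3%, background 13.7%). Without 1 replicate number they numbered 9 to 14 (6% to 9.33% of the members, background 11.2% to 13.1%).

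The count of members that differ among the lines was 147 and stayed between 134 and 150. Of the next 150 models 125 to 148 passed, and of all tested models 62.7% to 90.2%. Of the 150 members, 113 were also chosen by CPM per kb, 128 on the parents alone, 105 to 135 by the ranking of 1 line, and at least 142 by the other rules tried. Plants with the same replicate number did not deviate together: over 84 same-numbered pairs the correlation of deviations ran from -0.38 to 0.30 with a median of 0.013, and 6 of 24 libraries correlated best with their own number. The numbers therefore do not pair the plants. With a replicate block the parental count was 51 (34%, background 36.8%). The count among lines was 148 of the 150, against 83.6% of all tested models. The settings without replicate 2 of EE501F2_099, without EE501F2_516 and with single plants of EE501F2_641 and the choice on the F2 lines alone were added after seeing the data.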

Other observations

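The most abundant 150 differed between lines. In total 257 models were among the 150 highest of at least 1 line, and 107 of them were not members. Of the members, 73 were among the 150 highest in every line and 60 in every library, and 24 in at most 4 lines. A library's own 150 highest included 93 to 134 members, with the fewest in replicate 2 of EE501F2_516. The number of models needed to reach 50% of a library's counts ran from 279 in replicate 2 of EE501F2_641 to 951 in replicate 2 of EE501F2_099.

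In 11 members another model lies on the opposite strand in overlapping coordinates: g1638, g20700, g38219, g4970, g1604, g16149, g8210, g26870, g14422, g16174 and g7880. Without a stated strand setting, reads of these pairs could not be told apart.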
